A study of Mus musculus with 6 samples.

Results

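Interferon-stimulated genes were followed in RNA from jejunal intestinal epithelial cells (IEC), as 39 gene symbols listed by name and found on 40 of the 19616 gene rows of the deposited table. The list takes in transcription factors, RNA and DNA sensors, antiviral proteins and interferon-induced GTPases, and leaves out antigen presentation genes and chemokines. The symbol Gbp6 stands on 2 rows, which were kept apart by their identifiers. The study asked how IEC respond to the loss of the histone deacetylases HDAC1 and HDAC2. It compared 3 wild-type control mice (C1, C3 and C3-3) with 3 mice in which villin-Cre had deleted both genes (Hdac1-/-; Hdac2-/-, mice H1, H5 and H9), all aged 3 months and of a mixed C57BL/6J, 129SV and CD1 background. Villin-Cre acts in epithelial cells of the intestine, so other cell types in a preparation keep both genes. The cells were released with EDTA, an enrichment rather than a sort, and each mouse gave 1 library of poly(A)-selected RNA.

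Interferons are secreted proteins that put cells into an antiviral state. Type I and type III interferons signal through the kinases JAK1 and TYK2 to a complex with STAT2 and IRF9 that binds the interferon-stimulated response element (ISRE), while type II interferon acts at gamma-activated sites (GAS). In the gut, epithelial cells respond strongly to type III interferon, and some interferon-stimulated genes are also transcribed at a basal level without any infection, in part through IRF1, IRF7 and IRF9 themselves.

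Levels are given as CPM, the reads of a gene for every 1000000 reads of its library after TMM normalization. Calls of an increase or a decrease required that edgeR's quasi-likelihood test gave a Benjamini-Hochberg adjusted p of at most 0.05 over all 15618 genes tested and the groups differed by at least 2-fold. Fold changes are log2 values of deleted over control, with a standard error (SE), and n is 3 mice in each group throughout. Libraries held 36111035 to 65902344 counts, and 3 counts correspond to 0.0405 to 0.079 CPM. Hdac1 stood at 39.1, 34.5 and 48.9 CPM in C1, C3 and C3-3 and at 3.97, 2.53 and 4.81 CPM in H1, H5 and H9, which do not overlap. Hdac2 stood at 23.6 to 32.9 CPM in control mice and 21.4 to 26.6 CPM in deleted mice, so that its count did not tell the genotypes apart. Counts were given per gene and not per exon, and the reason was not tested. Of 8 epithelial markers, none was at 0, and their summed level was 12718 to 14605 CPM in control and 10203 to 12571 CPM in deleted mice, with a negative log2 fold change in 4. Krt18 was called increased (1.02), while Epcam (-0.62, edgeR adjusted p = 0.0174) and Krt20 (-0.57, edgeR adjusted p = 0.0319) were lower by under 2-fold. The summed level of 10 T cell and intraepithelial lymphocyte markers was 148 CPM in C1, 576 CPM in C3 and 485 CPM in C3-3, against 76.0, 178 and 154 CPM in H1, H5 and H9. All 10 had a negative log2 fold change, all 10 overlapped between groups, and none was at 0. Cd3g (-1.68) and Cd8a (-1.32) were called decreased, beside 12.7% of all genes tested. The summed level of 12 macrophage and dendritic cell markers was 15.9 to 25.9 CPM in control and 28.2 to 55.6 CPM in deleted mice. Of 11 tested, 9 had a positive log2 fold change, and Itgax (-0.22) and Siglech (-0.20) a negative one. Csf1r, C1qa, C1qb and Zbtb46 were called increased, beside 12.4% of all genes tested, and 5 of the 11 overlapped between groups. B and plasma cell markers (6 genes) ranged from 6.25 to 62.6 CPM in control and from 43.7 to 61.7 CPM in deleted mice, with Cd79b increased and the highest control sum in C1, and the 8 stromal and endothelial markers ranged from 4.44 to 14.1 CPM and from 4.45 to 10.1 CPM, with Dcn decreased. What part these other cells had in the values below was not tested. In bulk RNA, fewer cells of a type and less RNA per cell cannot be told apart.

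The interferon-stimulated genes did not move as 1 block. Of 40 rows, 38 passed the filter on low counts, and of these 4 were increased (Oas2, Ifit2, Mx2 and Oas1a), 6 were decreased (Ifih1, Gbp6, Ifitm3, Irf7, Irf9 and Ifi35) and 28 were not called. These are 10.5% increased and 15.8% decreased, beside 12.4% and 12.7% of all genes tested. With the adjusted p alone, 5 rows were higher (13.2%, beside 20.5% of all genes) and 9 lower (23.7%, beside 20.3%). The deleted mice lay wholly above the control mice in 7 rows (18.4%, beside 26.7%), wholly below in 11 (28.9%, beside 26.6%) and overlapped with them in 20. The shares of the list therefore lay near those of all genes or below them. The members were chosen with earlier results of these data known, so these shares are a description and carry no test. The median log2 fold change was -0.11 for the members and -0.01 for all genes. With library totals alone in place of TMM, which moved the median of all genes to 0.18, 6 members were increased and 5 decreased, and over all genes the split went from 1944 increased and 1990 decreased to 2463 and 1538. Without C3-3 alone, 7 of 39 tested members were increased, beside 1921 of all 16190 genes tested in that fit. Without C3 and C3-3, the control mice with the highest lymphocyte marker sums, the median log2 fold change was 0.145 for the members and 0.0064 for all genes. That fit has 1 control mouse, which is assumed to vary like the deleted mice.

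**Figure D1:**
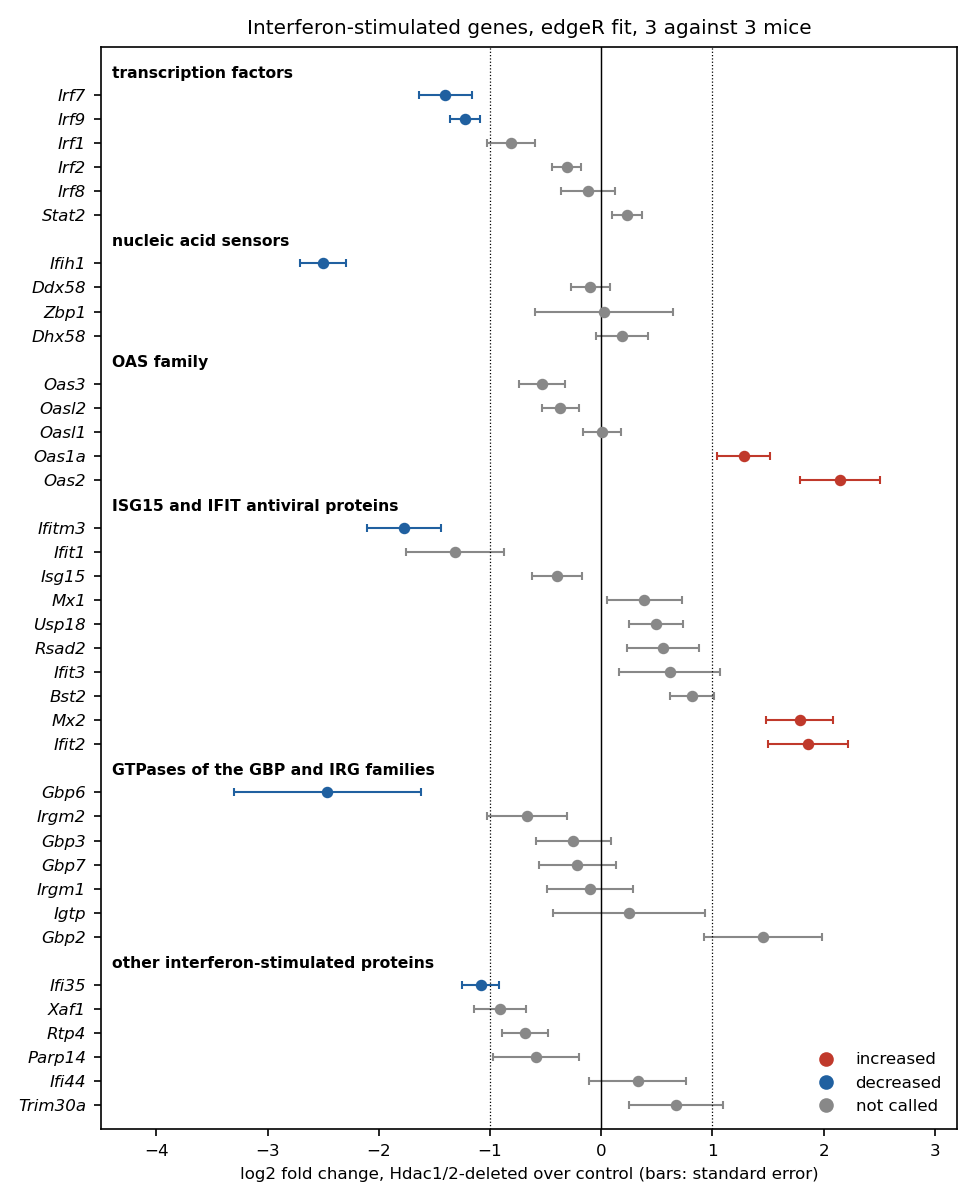
Log2 fold change of deleted over control mice for the 38 tested member rows, on the horizontal axis, with bars for the standard error of the edgeR fit (3 against 3 mice). Members are grouped by role and coloured by call; the values run from Ifih1 at -2.50 to Oas2 at 2.15, and only the ISG15, IFIT and Mx group holds both increased and decreased genes.

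Transcription factors of the interferon response were lower or did not pass the test. Of 6, 2 were decreased and none was increased, beside 12.7% and 12.4% of all genes tested. Counts over so few genes are a description and carry no test. The 6 log2 fold changes had a median of -0.56. Irf7, which drives the amplifying phase of type I interferon production (chr7:141262706-141266481, GRCm38), stood at 121, 246 and 182 CPM in C1, C3 and C3-3 and at 73.8, 62.8 and 71.3 CPM in H1, H5 and H9. All deleted mice lay below all control mice, and the control mice were the more spread. Its log2 fold change was -1.40 (SE 0.24, edgeR adjusted p = 0.00182). Without C3 and C3-3 it was -0.82, under the fold limit. Irf9, the DNA-binding subunit of the complex with STAT2 (chr14:55603571-55610030), stood at 42.4, 47.5 and 41.0 CPM in the control and at 20.1, 17.9 and 17.9 CPM in the deleted mice. Both groups were tight and well apart, with a log2 fold change of -1.23 (SE 0.14, edgeR adjusted p = 0.00021). Irf9 shares its locus with Rnf31 on the same strand, and Irf7 overlaps Phrf1 on the opposite strand, so reads of these neighbours may be counted in part.

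Irf1, a transcriptional activator, stood at 205, 273 and 202 CPM against 131, 162 and 95.2 CPM. The groups did not overlap, and its log2 fold change of -0.81 (SE 0.21, edgeR adjusted p = 0.0152) was under the fold limit. Stat2, the partner of IRF9, did not pass the test at 38.7 to 47.0 CPM in control and 47.0 to 54.2 CPM in deleted mice (0.23, SE 0.14). Irf2, which competes with IRF1 for its sites, was at 87.2 to 104 CPM against 72.0 to 83.1 CPM (-0.31, edgeR adjusted p = 0.0891). Irf8, a factor best known from myeloid cells, overlapped between the groups (56.3 to 111 CPM and 70.5 to 95.4 CPM).

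Of 4 nucleic acid sensors 1 was decreased and none increased, beside 12.7% and 12.4% of all genes tested. The values of the 2 RNA helicases that signal through MAVS lay apart. Ifih1 encodes MDA5, the sensor of long double-stranded RNA (chr2:62595798-62646255), and fell from 55.1, 61.3 and 47.4 CPM in C1, C3 and C3-3 to 12.2, 7.63 and 9.02 CPM in H1, H5 and H9. The lowest control mouse lay far above the highest deleted mouse. The log2 fold change of -2.50 (SE 0.20, edgeR adjusted p = 4.16e-05), a 5.67-fold difference, was the lowest among the members. Ddx58 encodes RIG-I, the sensor of short RNA with a triphosphate end, and stood at 61.4, 78.2 and 80.6 CPM against 66.9, 56.8 and 81.9 CPM. The groups overlapped (log2 fold change -0.10, SE 0.17). Within each library, whatever its scaling, there were 1.11 to 1.70 Ddx58 reads for every Ifih1 read in control mice and 5.49 to 9.08 in deleted mice. This ratio and those given below were chosen after their values were seen and carry no test. Dhx58, which encodes LGP2, the third helicase of that family, did not pass the test (6.39 to 11.0 CPM against 9.58 to 11.6 CPM). Zbp1, a sensor of Z-form nucleic acid that can start necroptosis, varied within both groups, at 15.1, 45.6 and 28.5 CPM in control and 21.6, 55.4 and 13.7 CPM in deleted mice (0.02, SE 0.62).

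The OAS proteins make short 2'-5' linked adenylates that switch on RNase L, and OASL proteins are relatives. Of 5 members, 2 were increased and none decreased, beside 12.4% and 12.7% of all genes tested. The median of the 5 log2 values was 0.00. Oas2 (chr5:120730333-120749853) rose from 1.66, 1.39 and 1.79 CPM in the control mice to 5.29, 11.2 and 5.04 CPM in H1, H5 and H9. H5 was the highest, and the lowest deleted mouse exceeded the highest control mouse. Its log2 fold change was 2.15 (SE 0.36, edgeR adjusted p = 0.00155), or 4.43-fold. Oas1a (chr5:120896256-120907521) rose from 11.2, 13.8 and 22.3 CPM to 38.8, 38.7 and 37.6 CPM. The deleted mice were almost level with each other while the control mice were spread, with a log2 fold change of 1.28 (SE 0.24, edgeR adjusted p = 0.00284). Oas1 genes are close paralogs and reads may be split among them.

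Oas3, whose product binds long double-stranded RNA, stood at 42.0, 36.6 and 60.4 CPM against 26.7, 36.0 and 33.6 CPM, lower in every deleted mouse by a narrow margin and short of the threshold (-0.53, SE 0.21, edgeR adjusted p = 0.0705). Oas3 lies 3.2 kb from Oas2 on chromosome 5. There were 25.3 to 33.8 Oas3 reads for every Oas2 read in control mice and 3.22 to 6.67 in deleted mice. For Oas3 over Oas1a the ratios were 2.64 to 3.73 and 0.687 to 0.929. Oasl1, which restrains translation of Irf7 mRNA, overlapped between groups (64.0 to 96.1 CPM and 75.3 to 90.3 CPM), as did Oasl2 (77.0 to 114 CPM and 69.6 to 81.9 CPM).

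ISG15, the IFIT, Mx and other antiviral proteins were the group with most positive values, 7 of 10 (median log2 fold change 0.52). Of the 10, 2 were called increased and 1 decreased, beside 12.4% and 12.7% of all genes tested. Ifit2, an RNA-binding antiviral protein (chr19:34550694-34576419), rose from 1.87, 2.14 and 1.35 CPM in C1, C3 and C3-3 to 9.57, 4.03 and 5.84 CPM in H1, H5 and H9. All deleted mice exceeded all control mice, H5 least so. Its log2 fold change was 1.86 (SE 0.36, edgeR adjusted p = 0.00336). Mx2, a dynamin-like GTPase (chr16:97535308-97560900), rose from 2.23, 1.46 and 1.52 CPM to 7.73, 4.74 and 5.54 CPM. The groups did not overlap and H1 was again the highest, with a log2 fold change of 1.79 (SE 0.30, edgeR adjusted p = 0.00166). Mx1, its neighbour in the same family, did not pass the test at 1.80, 3.42 and 1.88 CPM against 3.83, 2.55 and 2.88 CPM (0.39, SE 0.34).

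Bst2, the tether that holds budding virus at the membrane, stood at 7.52, 8.16 and 11.0 CPM against 16.7, 15.8 and 14.3 CPM. Every deleted mouse exceeded every control mouse, with a log2 fold change of 0.82 (SE 0.20, edgeR adjusted p = 0.00973) that passed the test and not the fold limit, except with library totals alone (1.01), without C3-3 (1.005) and without C3 and C3-3 (1.04). Ifitm3, which blocks fusion of entering virus in endosomes (chr7:141009586-141010770), went the opposite way, from 16.4, 15.2 and 13.1 CPM to 5.48, 5.42 and 2.19 CPM. The groups lay far apart and H9 was the lowest (-1.77, SE 0.34, edgeR adjusted p = 0.00306).

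Ifit1, which binds viral mRNA lacking a methylated cap, stood at 39.3, 49.6 and 44.5 CPM in the control mice and at 28.5, 7.27 and 17.6 CPM in H1, H5 and H9. All deleted mice lay below the control mice, but they differed from each other, and its log2 fold change of -1.32 (SE 0.44) just missed the threshold (edgeR adjusted p = 0.0506). It was called decreased with DESeq2 size factors in edgeR, the DESeq2 Wald test, limma-voom, a minimum of 10 counts in every sample, or without H1. Ifit3, a close relative of IFIT1, stood at 7.26, 11.4 and 11.8 CPM against 22.8, 5.98 and 17.7 CPM, with H5 under every control mouse and H1 and H9 over all of them (0.62, SE 0.46), and it was called increased without H5 (1.004). Isg15, the ubiquitin-like modifier, was at 25.0, 28.8 and 27.5 CPM against 28.4, 16.1 and 17.2 CPM (-0.39, SE 0.22). Usp18, the protease that removes ISG15 and dampens receptor signalling, was at 6.25 to 6.86 CPM against 7.27 to 12.4 CPM (0.49, edgeR adjusted p = 0.139). Rsad2, encoding viperin, was at 9.0 to 9.83 CPM against 8.19 to 21.5 CPM (0.55, SE 0.32).

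**Figure D2:**
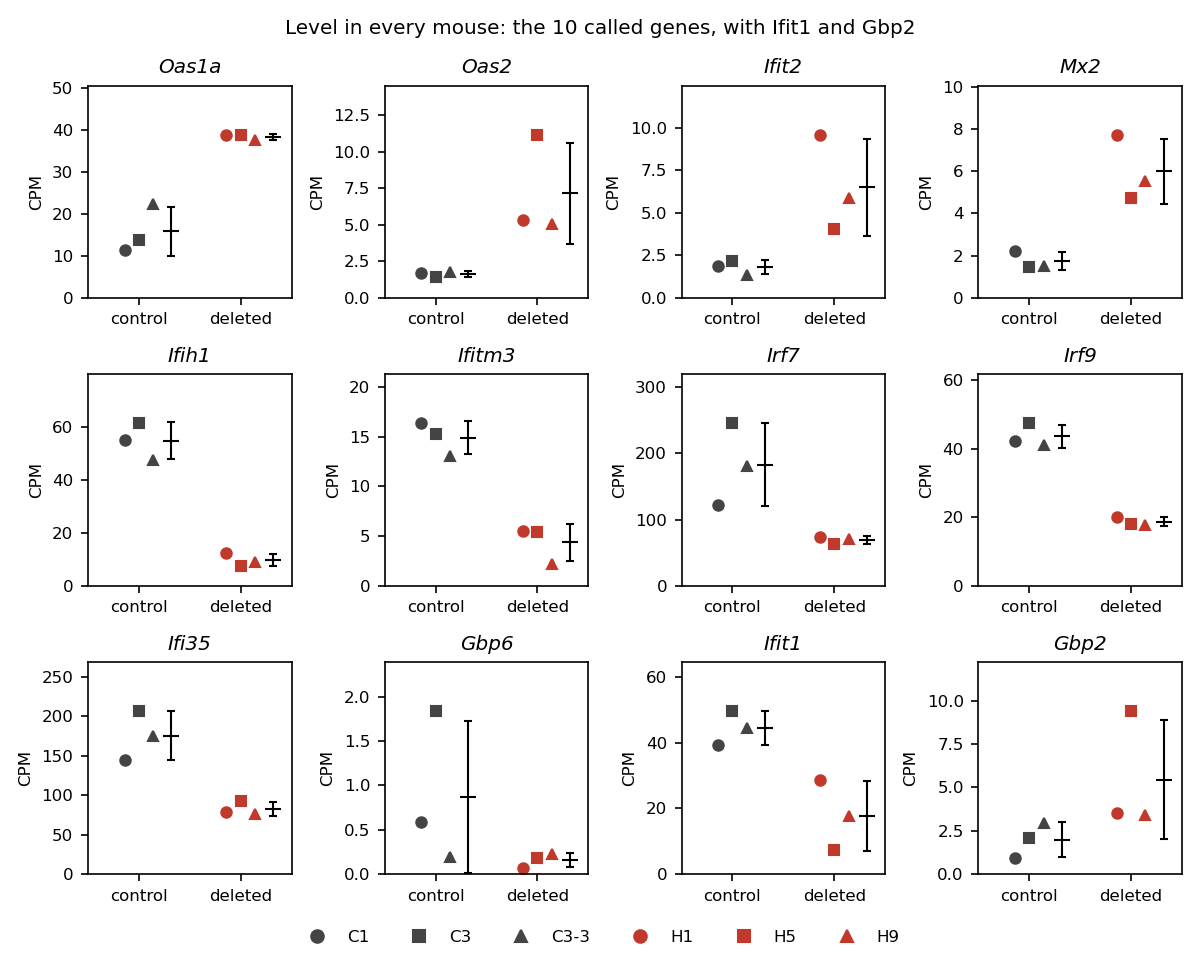
CPM in each of the 6 mice for the 10 called members, Ifit1 and Gbp2, on linear axes that start at 0; symbols mark single mice, horizontal bars the group mean and vertical bars the SD (n = 3). In 9 of the 10 called genes the deleted and control mice do not overlap, and in Gbp6 they do, with C3 at 1.84 CPM far above the other 5 mice.

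The Ifit genes stand in a row on chromosome 19, and within that row the fold changes had different signs. From Ifit2 the next member, Ifit3, begins 7.1 kb on, and Ifit1 52.1 kb beyond the end of Ifit3. The reads of Ifit1 for every read of Ifit2 were 21.0, 23.2 and 32.9 in C1, C3 and C3-3 and 2.98, 1.80 and 3.01 in H1, H5 and H9. For Ifit1 over Ifit3 they were 5.41, 4.35 and 3.78 in the control and 1.25, 1.22 and 0.992 in the deleted mice. All deleted ratios lay under all control ratios, in H5, where these genes were lowest among the deleted mice, as in H1, where they were highest. Ifit3b, a close copy of Ifit3 that was not a member, had a log2 fold change of 0.88 and was not called, and Oas1g beside Oas1a was increased (1.04, SE 0.33).

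**Figure D3:**
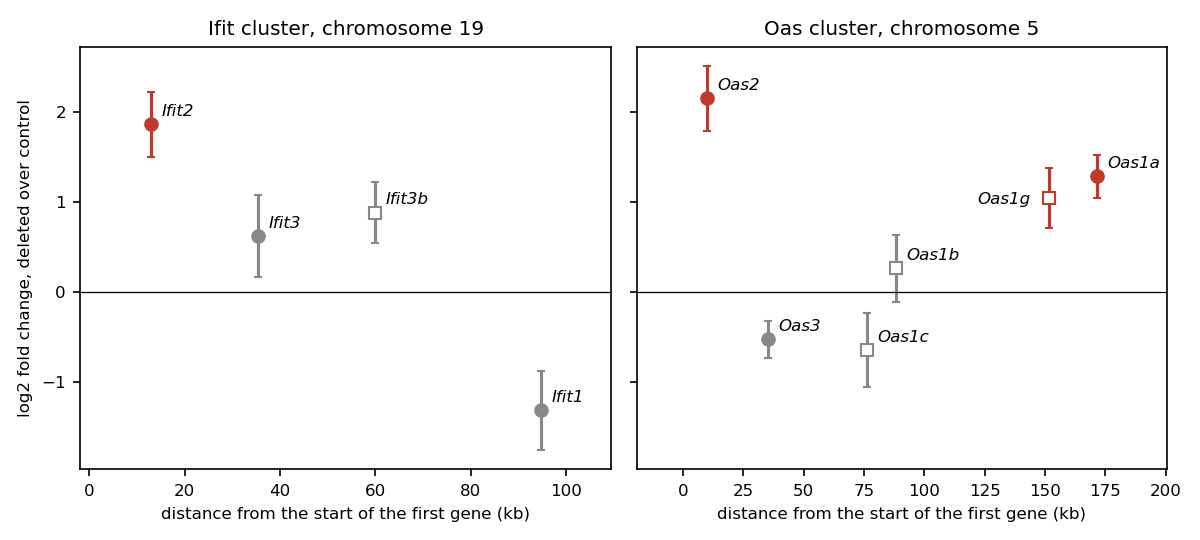
Log2 fold change of deleted over control mice (vertical axis, bars for the standard error) against distance in kb from the start of the first gene, for the Ifit cluster and the Oas cluster. Filled circles are members, open squares other genes of the clusters, red marks an increase and grey no call; Ifit2 at 1.86 and Ifit1 at -1.32, and Oas2 at 2.15 and its neighbour Oas3 at -0.53, lie on opposite sides of 0.

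The DNA just upstream of these genes is shown for members with different fold changes, Ifit1 and Ifit3 of the Ifit row, Oas1a, which was increased, and Ifih1, which was decreased. Sequences are from RefSeq promoter windows on GRCm38.p6, which run from 250 bases before to 50 after a gene's start, and are printed 5' to 3' on the gene's strand. Capitals mark the ISRE core GAAANNGAA, on either strand, so that a core on the opposite strand reads TTCNNTTTC. They cover chr19:34640689-34640868 (plus strand, Ifit1), chr19:34583329-34583508 (plus strand, Ifit3), chr5:120907526-120907705 (minus strand, Oas1a) and chr2:62646276-62646455 (minus strand, Ifih1).
Ifit1: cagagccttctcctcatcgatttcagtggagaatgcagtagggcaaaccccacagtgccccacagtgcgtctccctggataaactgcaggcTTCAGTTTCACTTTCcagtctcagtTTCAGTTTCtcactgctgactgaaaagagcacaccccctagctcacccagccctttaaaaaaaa
Ifit3: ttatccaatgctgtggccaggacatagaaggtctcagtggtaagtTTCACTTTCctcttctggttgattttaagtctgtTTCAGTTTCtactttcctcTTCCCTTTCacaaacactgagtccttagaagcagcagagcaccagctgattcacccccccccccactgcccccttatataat
Oas1a: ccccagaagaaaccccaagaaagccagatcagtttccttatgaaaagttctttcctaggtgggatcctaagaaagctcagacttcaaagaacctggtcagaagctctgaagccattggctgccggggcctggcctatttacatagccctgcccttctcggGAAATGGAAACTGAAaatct
Ifih1: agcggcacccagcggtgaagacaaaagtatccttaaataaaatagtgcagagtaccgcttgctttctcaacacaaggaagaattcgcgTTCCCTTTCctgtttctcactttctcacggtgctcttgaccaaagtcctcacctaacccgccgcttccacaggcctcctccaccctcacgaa

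The printed stretch held 3 cores at Ifit1, of which a pair overlap, 3 at Ifit3, 2 overlapping ones at Oas1a and 1 at Ifih1. Among the 39 members, 29 had a window, and 20 of these (69%) held an ISRE core, beside 8.58% of 10759 tested genes with a window and 9.76% of 27025 genes in the RefSeq table. The palindromic GAS letters TTCNNNGAA, which overlap the ISRE core at some sites, were in 11 windows (37.9%), beside 8.49% of tested genes. By call, the core was in 17 of 22 uncalled members, 2 of 5 decreased members (Ifih1 and Ifitm3) and 1 of 2 increased members (Oas1a). The other increased member, Ifit2, had windows only at the upstream end of its gene, and sequence farther along the gene was not searched, so its lack of a core holds for those windows alone. Members with a core were thus found rising, falling and not called. A match of letters is a description of the window and not a measured site. No window was used for Dhx58, Zbp1, Oas2, Usp18, Mx1, Mx2, Gbp6, Iigp1, Parp14 and Rtp4.

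The interferon-induced GTPases, of the GBP family that coats intracellular pathogens and the IRG family that acts at vacuoles and on autophagy, mostly did not pass the test, and most overlapped between groups. Gbp2 stood at 0.936, 2.05 and 2.95 CPM against 3.54, 9.40 and 3.40 CPM, higher in every deleted mouse and highest in H5 (1.46, SE 0.53, edgeR adjusted p = 0.0571). It was called increased with library totals alone, with DESeq2, without C3-3 and without C3 and C3-3. Gbp6 (ENSMUSG00000104713, chr5:105270702-105293698) was called decreased at a low level, from 0.589, 1.84 and 0.188 CPM to 0.0675, 0.184 and 0.228 CPM. Its groups overlapped and C3 stood far above the rest, and without C3 the log2 fold change went from -2.46 (SE 0.84, edgeR adjusted p = 0.0444) to -1.31 (edgeR adjusted p = 0.192). The call was also lost without C1, H1, H5 or H9 and with limma-voom. It overlaps the other row with that symbol, ENSMUSG00000079362, which had 0.0151 to 0.0675 CPM and was not tested, and reads may be split between them.

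Igtp, encoding IRGM3, varied most among the deleted mice, at 37.0, 101 and 19.5 CPM in H1, H5 and H9 beside 22.7, 58.9 and 50.7 CPM in C1, C3 and C3-3 (0.25, SE 0.68). It overlaps Irgm2 on the same strand, which stood at 22.3 to 44.5 CPM in control and 13.9 to 32.4 CPM in deleted mice (-0.66, SE 0.36). Irgm1, a regulator of autophagy, was at 16.4 to 19.7 CPM and 8.84 to 27.9 CPM. Gbp3 (1.19 to 2.20 CPM against 1.24 to 1.38 CPM) and Gbp7 (1.87 to 2.84 CPM against 1.38 to 2.66 CPM) overlapped as well. Iigp1, at 0.0325 to 0.290 CPM over the 6 mice, was too low to be tested.

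Among the other 6 members, 1 was decreased and none was increased, beside 12.7% and 12.4% of all genes tested. By the adjusted p alone 3 were lower, beside 20.3% of all genes tested. Ifi35, a protein that joins NMI in immune signalling (chr11:101448407-101458698), was per kilobase of exon the most abundant member in control mice, at 102 CPM per kb beside 57.0 for Irf1 and 48.5 for Irf7. It stood at 145, 206 and 175 CPM in the control and 79.2, 92.9 and 76.3 CPM in the deleted mice. No deleted mouse reached the lowest control mouse, and the log2 fold change was -1.08 (SE 0.17, edgeR adjusted p = 0.000998), which went under the 2-fold limit with library totals alone (-0.89), without C3 (-0.95) and without C3 and C3-3 (-0.82). Xaf1, which opposes the caspase inhibitor XIAP, was lower at 8.29, 11.7 and 10.7 CPM against 6.61, 4.63 and 5.01 CPM (-0.91, SE 0.23, edgeR adjusted p = 0.0121). Rtp4, a regulator of interferon responses, was lower at 12.9, 12.3 and 16.8 CPM against 10.2, 8.06 and 7.82 CPM (-0.68, SE 0.20, edgeR adjusted p = 0.0247). In both, all deleted mice lay below the control mice, and Xaf1 passed the fold limit without C1 (-1.03) and without H1 (-1.08). With library totals alone neither passed the test (edgeR adjusted p = 0.0503 for Xaf1 and 0.129 for Rtp4). With single mice left out, the edgeR adjusted p of Rtp4 ran from 0.0241 to 0.119. Parp14, a mono-ADP-ribosyltransferase, spread from 92.9 to 228 CPM in control and from 70.2 to 145 CPM in deleted mice (-0.59, SE 0.39). Trim30a, which restrains NF-kappaB signalling, was at 1.33, 2.50 and 4.84 CPM against 4.64, 4.79 and 4.37 CPM (0.67, SE 0.42), called increased without C3-3 (1.28) and without C3 and C3-3 (1.78), and Ifi44 at 0.770 to 1.60 CPM against 1.09 to 2.51 CPM (0.33, SE 0.44).

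The deleted mice also differed among themselves, and the role groups did not share 1 order. H1 was the highest deleted mouse in 10 of 10 genes of the ISG15, IFIT and Mx group, and H5 was the lowest in 7 of them. Over all 38 tested members H1 was the highest in 20 and H5 the lowest in 14. The order over all genes was not examined. Among the 7 tested GTPases H5 was the highest in 5, H1 in none and H9 was the lowest in 5. Ifit3 thus ran 22.8, 5.98 and 17.7 CPM in H1, H5 and H9 while Igtp ran 37.0, 101 and 19.5 CPM. H5 had the fewest counts of all libraries and H1 the lowest lymphocyte marker sum. Among the control mice C1 was lowest in 23 of 38 members, and it also had the lowest lymphocyte sum. Summed over all 40 rows, the level was 1392, 1947 and 1689 CPM in C1, C3 and C3-3 (mean 1676 ± 278, SD, n = 3) and 1176, 1350 and 1063 CPM in H1, H5 and H9 (mean 1196 ± 144, SD, n = 3), so that with TMM every deleted mouse was below every control mouse. With library totals alone the groups overlapped, at 1399 CPM in C1, 1736 in C3 and 1547 in C3-3 against 1335 in H1, 1420 in H5 and 1082 in H9. The largest parts of that sum in control mice were reads of Irf1, Irf7 and Ifi35.

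**Figure D4:**
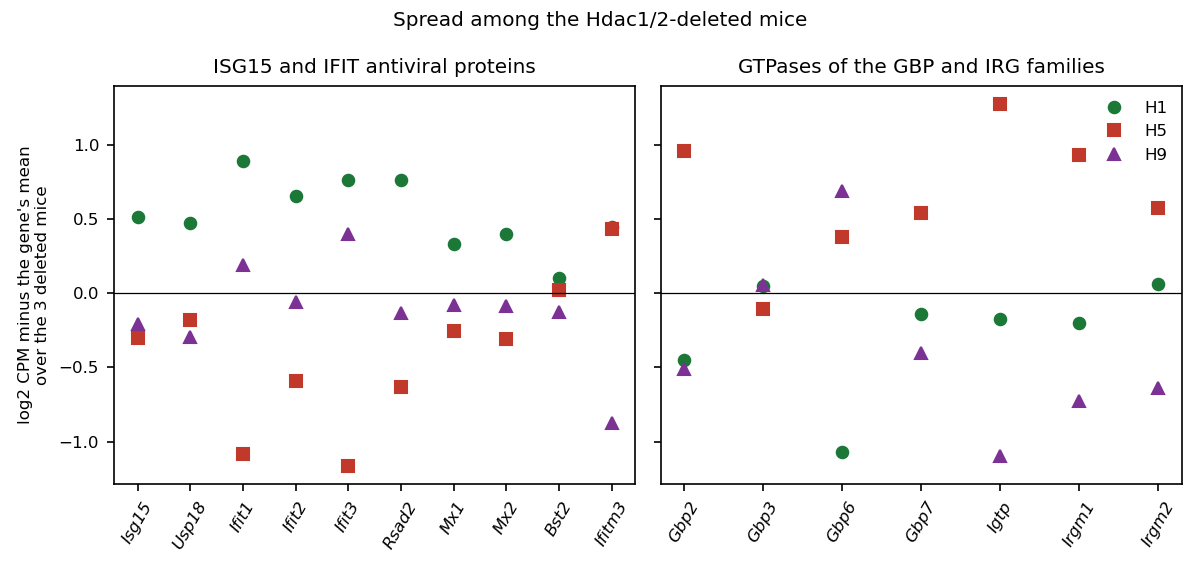
Log2 CPM of H1, H5 and H9 minus the gene's mean over these 3 deleted mice, for the ISG15, IFIT and Mx group (left) and the tested GTPases (right). H1 is highest in all 10 genes on the left, and H5 is highest in 5 of the 7 on the right.

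Of 10 interferon ligands listed, only Ifng, the type II interferon, was measured here, at no more than 0.0720 CPM (4 counts) in any mouse, under the filter, and the other 9 were not analysed here. None of 6 receptor subunits was called. At an adjusted p alone 3 were lower, beside 20.3% of all genes tested. In these 3 the deleted mice lay wholly below the control mice, beside 26.6% of all genes tested. Ifnlr1, the specific chain of the type III interferon receptor, stood at 24.7, 22.8 and 33.9 CPM against 17.0, 11.0 and 17.3 CPM (-0.84, SE 0.23, edgeR adjusted p = 0.0161). Its partner chain Il10rb stood at 150, 113 and 164 CPM against 83.3, 80.8 and 93.7 CPM (-0.73, edgeR adjusted p = 0.00742). Ifngr2, of the type II receptor, stood at 305, 263 and 294 CPM against 167, 134 and 188 CPM (-0.82, edgeR adjusted p = 0.00373). Ifnar1 (0.36) and Ifnar2 (-0.41), the type I receptor, and Ifngr1 (0.31) did not pass the test.

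Among the JAK and STAT genes, Stat5a, a mediator of cytokine and growth hormone signals, was decreased (-1.69, edgeR adjusted p = 0.000853). Jak1 was lower (-0.48, edgeR adjusted p = 0.0129) and Stat6, of the interleukin-4 pathway, higher (0.65, edgeR adjusted p = 0.0045), both under 2-fold. The log2 fold changes of Tyk2 (-0.03), Jak2 (-0.35), Jak3 (-0.74), Stat3 (0.17), Stat4 (-0.87) and Stat5b (-0.23) did not pass the test. Of 9 negative regulators, Cish, a STAT5 target that feeds back on cytokine receptors (-3.73), and Ptpn6, the phosphatase SHP-1 (-1.36), were decreased and none was increased. Of 15 genes that lead to interferon production, Mb21d1, encoding the DNA sensor cGAS (-3.59), the double-stranded RNA receptor Tlr3 (-1.11) and its adaptor Ticam1 (-1.12) were decreased, and Irf5 was increased (2.96).

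Among 54 tested genes of a further list of interferon-stimulated genes, 13 were decreased and 4 increased, and their log2 fold changes had a median of -0.52. The decreased genes included the enzymes that attach ISG15 to proteins, Uba7, its activating enzyme, at 50.3, 102 and 83.0 CPM against 30.6, 34.6 and 27.8 CPM (-1.34, SE 0.24, edgeR adjusted p = 0.00255), and Ube2l6, its conjugating enzyme, at 78.6, 115 and 111 CPM against 28.8, 35.2 and 28.3 CPM (-1.72, SE 0.18, edgeR adjusted p = 0.000142). Herc6, the mouse ISG15 ligase, fell too (-2.09). In these 3 genes, picked from those called decreased, no deleted mouse reached the lowest control mouse. That held for 20 of the 54 genes of the list and for 26.6% of all genes tested. The groups overlapped in Isg15 itself. Also decreased were Sp100 (-3.36), Pml (-1.22), which forms nuclear bodies, and Sp110 (-1.58), whose groups overlapped at C1 (1.62 CPM) and H9 (1.92 CPM). So were Ido1, which breaks down tryptophan (-3.30), Cd274, encoding PD-L1 (-2.28), Ifi47 (-1.81), Parp12 (-1.46), Ifi27l2b (-1.41) and Trim34a (-1.28). Gbp10 was called decreased at a low level (-1.86, SE 0.64, edgeR adjusted p = 0.0447). Its groups overlapped, at 0.181, 0.486 and 0.809 CPM in C1, C3 and C3-3 and 0.202, 0.105 and 0.0813 CPM in H1, H5 and H9. Tgtp1, an IRG GTPase (1.91), the RNA-processing Pnpt1 (1.33), the RNA helicase Mov10 (1.22) and Oas1g (1.04) were increased. Over all these lists around the members, 5 of 94 tested genes were increased and 19 decreased. Over all genes tested, 1944 of 15618 (12.4%) were increased and 1990 (12.7%) decreased. The lists were chosen with earlier results of these data known, so this comparison is a description and carries no test. The increased genes of the lists numbered 3 without C1 or without C3, beside 2109 of 16062 and 1911 of 16140 genes tested in these fits.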

How the data were processed

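RNA-Seq was done on IEC of the jejunum, with 3 mice in each group, control and Hdac1/2-deleted, as their labels give it. The authors aligned reads with STAR and deposited raw counts per gene for 19616 genes. The submitters' processing notes list STAR 2.4.0f1 and bcl2fastq 1.8.4 and the build mm9, whereas the methods name GRCm38. The counting program and its strand setting were not given in the sources used here. The authors also deposited, for each sample, a score (the counts times 1 factor per sample, rounded), and log2 fold changes, log2 CPM and p-values of their own comparison, none of which was used.

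Counts were filtered with filterByExpr (15618 genes kept), normalized with TMM (factors 0.892 to 1.14) and fitted with edgeR 4.0.16 in R 4.3.3 (robust quasi-likelihood, prior count 0.125, no covariates). The SE is the log2 fold change divided by the square root of the F statistic. The paper's limits, an adjusted p of 0.05 and 2-fold, were kept. Alternatives were DESeq2 size factors, library totals, DESeq2 1.42.0, limma-voom (limma 3.58.1), no filter, at least 10 counts in every sample, and each mouse left out. A fit without C3 and C3-3 was added after seeing the data. Steps were tested on simulated data. The labels name separate mice without batches.

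Every member was named, called or not. Of the lists around them, called genes and the receptors, JAKs and STATs were named, except for 1 gene that is not reported here. The members and lists were chosen with earlier results of these data known. Positions came from GENCODE M21 (GRCm38), matched by identifier, and promoters from RefSeq by symbol. Counts of 3 set the detection floor. Plots used matplotlib 3.10.9 in Python 3.11.15.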

Additional observations from a re-analysis of the deposited data

How the results depend on the processing

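Of 455 log2 fold changes of single members over 12 alternatives, 414 kept their direction and their side of the threshold, 8 lost the call, 14 gained one and 19 changed sign. The calls of Irf9, Oas1a, Ifitm3, Mx2, Ifit2, Oas2 and Ifih1 were kept under all alternatives run.

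With library totals alone, 9 genes of the lists around the members were increased in place of 5, the members' median was 0.0883, and the signs of Irgm1 (0.0888), Ddx58 (0.0944) and Irf8 (0.0878) turned. With limma-voom those of Zbp1 (-0.14) and Igtp (-0.0107) turned. Without C3 and C3-3, 7 members were increased and 3 decreased, 5 were lower by the adjusted p alone in place of 9, 11 list genes were decreased in place of 19, the median was 0.145, and Ddx58 (0.145), Irf8 (0.48), Gbp7 (0.0021), Gbp3 (0.15) and Irgm2 (0.0323) turned. None of these genes was called.

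With each mouse left out in turn, 4 to 7 members were increased (7 without C3-3) and 4 to 7 decreased. Over all 16062 to 16190 genes tested in these fits, 1841 to 2109 were increased and 1790 to 2012 decreased. Of the list genes, 3 to 6 were increased (3 without C1 or without C3), and the members' median ran from -0.289 to 0.00763. The values ran from -0.13 to 0.15 for Oasl1, -0.74 to 0.48 for Zbp1, -0.0112 to 0.34 for Dhx58, -0.64 to 0.65 for Igtp, -0.34 to 0.12 for Irf8, -0.52 to 0.0253 for Gbp7, -0.41 to 0.068 for Gbp3, -0.70 to 0.21 for Irgm1, -0.17 to 0.55 for Ifi44 and -0.24 to 0.0247 for Ddx58. No paired analysis was run because the labels give no litters or pairs. The causes of these shifts were not tested. With 3 mice in each group, an exact permutation test of a single value cannot give a p under 0.1. Depth limits Gbp6 and Iigp1, whose levels are near the floor in some mice.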
